A study of Mus musculus with 12 samples.

Results

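Cyp2e1 and other cytochrome P450 genes of mouse fat were examined together with Por, the reductase on which most of them depend. The 8 genes Cyp2e1, Cyp4b1, Cyp2f2, Cyp1b1, Cyp2d22, Cyp7b1, Cyp27a1 and Por were taken by gene symbol from the 23474 genes of the deposited table, and all 8 were found. They were listed with their values in these libraries already known, so their levels and differences are given as a description, with standard errors and no p-values.

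RNA was sequenced from epididymal white adipose tissue (eWAT), the fat pad beside the epididymis, of male C57BL/6J mice. From 5 weeks of age, 4 groups of 10 mice were kept for 12 weeks on a normal diet (ND), a high-fat diet (HFD), an HFD with an ethanol extract of green tea at 0.25% by weight (GT) or an HFD with the herbal medicine Taeeumjowitang at 3% by weight (TJ), and the libraries came from mice 17 weeks old. All mice of the GT and TJ groups thus also ate the HFD. The table held 3 libraries per group, named here by group and replicate number. The HFD and TJ mice were drawn at random from their groups. How the ND and GT mice were drawn is not given in the sources used here.

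Cytochrome P450 enzymes carry a haem group and insert an oxygen atom into lipids, steroids and foreign compounds. P450s of the endoplasmic reticulum receive their electrons from NADPH through cytochrome P450 oxidoreductase, the product of Por, at times with help from cytochrome b5. Mitochondrial P450s such as the sterol 27-hydroxylase encoded by Cyp27a1 are served by ferredoxin and ferredoxin reductase instead. Cyp2e1 oxidises ethanol, acetone and some fatty acids and is best known from the liver, but it is also expressed in adipocytes.

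Levels are in FPKM, fragment counts scaled by the size of the library and by transcript length, which permits levels of different genes to be compared. Fold changes were fitted with limma on log2(FPKM + 1), a scale that understates the change of low genes. Each comparison used its own 6 libraries, and genes that averaged under 1 FPKM across them were left out. A gene was called at a limma adjusted p below 0.05 and a fold of at least 1.5. Over all tested genes the median change on this scale was 0.07 in HFD against ND, -0.12 in GT against HFD and -0.14 in TJ against HFD. It moved to -0.13 with median-of-ratios scaling in HFD against ND, and to 0.03 with quantile normalization in each of the other comparisons.

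ND replicate 1 stood apart from the other libraries. Its summed FPKM of 10 testis germ cell markers was 99280, with the nuclear protein gene Tnp1 alone at 28802, and that of 12 epididymis markers was 28409. Its 10 adipocyte markers summed to 4311 FPKM, against 17968 to 61794 in the other 11 libraries. ND replicate 3 and HFD replicate 1 also held testis transcripts (3055 and 2088 FPKM over the 10 markers), and HFD replicate 2 held 1293 FPKM of epididymis markers. Results for HFD against ND are therefore given with and without ND replicate 1. All 10 adipocyte markers were at 1 FPKM or more in every library. Liver markers, among them Alb, summed to at most 12.9 FPKM in any library, and none of 6 markers of lung club cells reached 1 FPKM.

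Among the genes with a Cyp symbol Cyp2e1 had the highest FPKM in each of the 12 libraries, and its level was lowest in the HFD group. The gene (ENSMUSG00000025479) lies on the plus strand at chr7:140763739-140774987 of GRCm38 and has 9 exons in its longest transcript. The 250 bases before the RefSeq start of Cyp2e1 and of 3 other genes of the list are shown because these genes had different patterns over the diets. In each line the capitals mark matches on either strand to 5 short strings. They are the TATA box, searched as TATAAA, and the box bound by the factor NF-Y, searched as CCAAT. The GC box of the Sp1 family was searched as GGGCGG. The core site of the aryl hydrocarbon receptor, the dioxin sensor, was searched as GCGTG, and the half-site of nuclear receptors as AGGTCA.
Cyp2e1, chr7:140763569-140763818, plus strand: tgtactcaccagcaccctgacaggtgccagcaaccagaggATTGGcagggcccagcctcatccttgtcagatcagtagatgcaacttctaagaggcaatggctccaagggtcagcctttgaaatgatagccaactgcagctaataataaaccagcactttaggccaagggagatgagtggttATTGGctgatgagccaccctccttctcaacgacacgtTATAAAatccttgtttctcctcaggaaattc
Cyp27a1, chr1:74713285-74713534, plus strand: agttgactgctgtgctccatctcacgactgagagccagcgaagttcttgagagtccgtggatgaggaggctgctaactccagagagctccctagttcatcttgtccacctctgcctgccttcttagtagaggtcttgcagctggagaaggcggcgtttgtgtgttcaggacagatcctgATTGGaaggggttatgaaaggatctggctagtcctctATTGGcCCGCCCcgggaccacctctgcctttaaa
Cyp1b1, chr17:79715062-79715311, minus strand: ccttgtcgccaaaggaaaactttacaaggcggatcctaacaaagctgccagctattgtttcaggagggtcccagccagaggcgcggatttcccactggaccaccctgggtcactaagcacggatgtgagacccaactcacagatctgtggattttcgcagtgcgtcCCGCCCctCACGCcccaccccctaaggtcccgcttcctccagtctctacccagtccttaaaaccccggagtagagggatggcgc
Por, chr5:135688895-135689144, plus strand: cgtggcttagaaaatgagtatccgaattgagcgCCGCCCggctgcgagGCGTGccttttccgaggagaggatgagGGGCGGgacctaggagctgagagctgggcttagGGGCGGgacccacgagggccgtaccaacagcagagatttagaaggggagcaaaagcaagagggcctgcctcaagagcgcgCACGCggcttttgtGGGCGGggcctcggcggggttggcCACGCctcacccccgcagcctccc
The sequences come from RefSeq on GRCm38.p6 and run from 5′ to 3′. The RefSeq starts of Cyp2e1 and Por lie inside the longer gene spans of GENCODE, so these windows may hold bases that other transcripts include.

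Of these 4 windows only that of Cyp2e1 held TATAAA, 31 to 26 bases before the start, and it also held the CCAAT box on the minus strand at 210 and 68 bases before it. Cyp27a1 had the CCAAT box on the minus strand at 71 and 34 bases and a GC box at 28 bases before its start. Cyp1b1, a gene that the aryl hydrocarbon receptor is known to switch on, had 1 GC box and 1 receptor core, on the minus strand at 84 and 76 bases before the start. The Por window held 4 GC boxes and 3 receptor cores, and its 65.6% of G and C bases compared with a median of 52.4% over all 32851 RefSeq windows of this length. The strings are short and common. TATAAA occurred in 12.37% of those windows, CCAAT in 33.85%, GGGCGG in 32.74%, GCGTG in 28.16% and AGGTCA in 14.02%. RefSeq windows were found for 6 of the 8 genes.

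In the ND group Cyp2e1 was at 102, 1612 and 1492 FPKM in replicates 1, 2 and 3. In the HFD group it was at 106, 111 and 65.3 FPKM. ND replicates 2 and 3 thus lay far above all HFD libraries, while ND replicate 1, the library with the lowest adipocyte marker sum, lay among them. With the GT extract the level was 240.2, 557 and 795 FPKM, and with TJ it was 727, 1605 and 642 FPKM. Every GT and every TJ library exceeded every HFD library, and the GT and TJ ranges overlapped with each other. Over all tested genes, 12.3% were higher without overlap in GT than in HFD and 20.1% in TJ than in HFD.

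The group means of Cyp2e1 were 1068 ± 840 FPKM in ND (SD, n = 3), 94.0 ± 24.97 in HFD (SD, n = 3), 531 ± 279 in GT (SD, n = 3) and 991 ± 533 in TJ (SD, n = 3). The ND mean was 1552 FPKM without its replicate 1 (n = 2). In the order ND, TJ, GT, HFD only the neighbours GT and HFD did not overlap. The mean was 10.6 times as high in TJ as in HFD and 5.65 times as high in GT as in HFD. The fitted log2 fold change of Cyp2e1 was -2.76 in HFD against ND (standard error 1.12), and -4.07 without ND replicate 1 (standard error 0.26). It was 2.36 in GT against HFD (standard error 0.44) and 3.30 in TJ against HFD (standard error 0.38). The GT and TJ comparisons share the 3 HFD libraries. In bulk tissue, fewer cells of a type and less RNA per cell cannot be told apart.

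**Figure D1:**
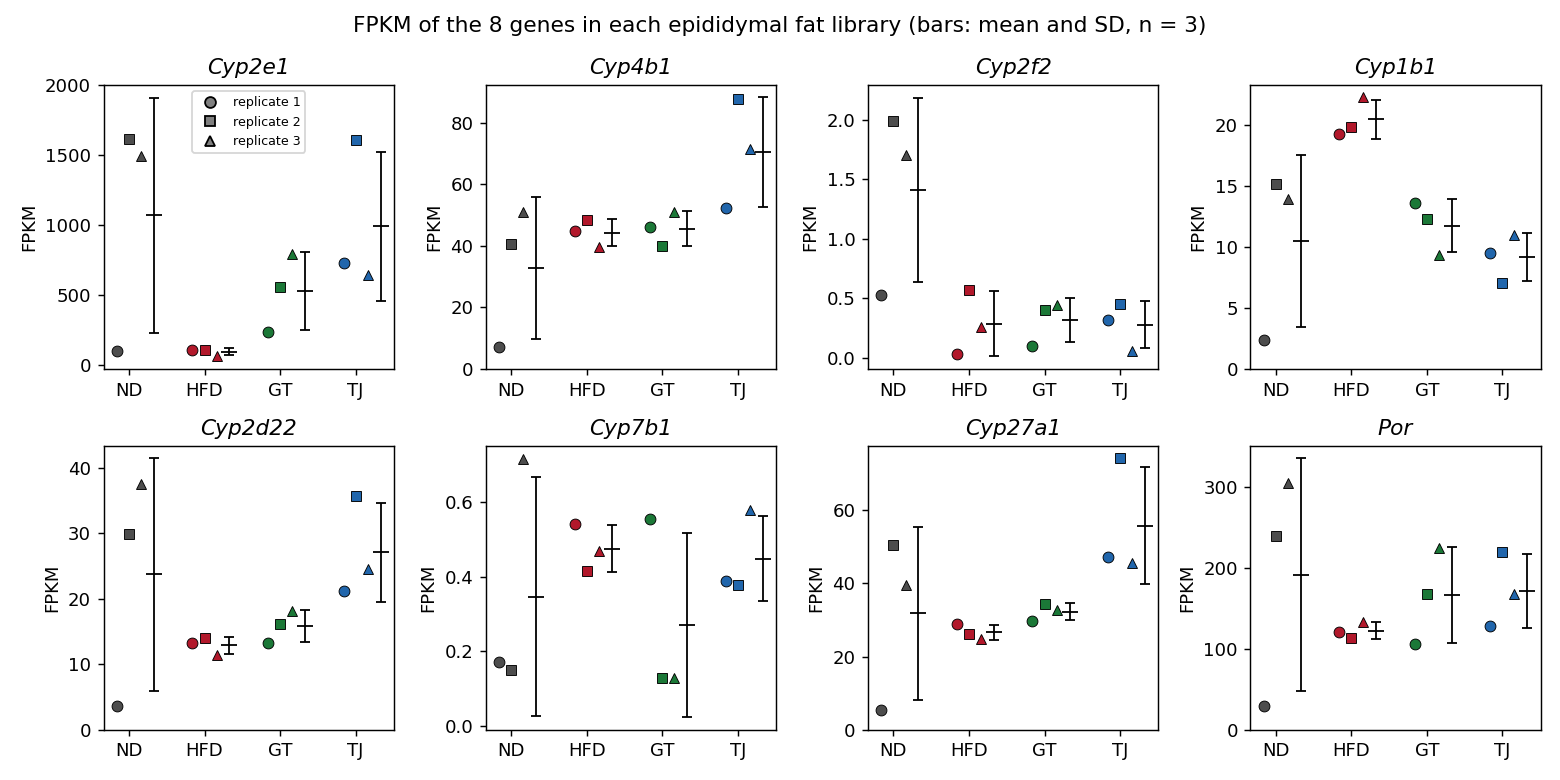
FPKM of each of the 8 genes (vertical axes, linear, 1 panel per gene) in the ND, HFD, GT and TJ groups. Symbols are single libraries, with the shape giving the replicate number, and bars are the mean and SD of 3 libraries. In the Cyp2e1 panel the 3 HFD libraries sit between 65.3 and 111 FPKM and the GT and TJ libraries between 240.2 and 1605, whereas Cyp1b1 is highest in HFD.

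Most of the difference between groups in summed P450 transcripts lay in Cyp2e1. The table listed 98 P450 genes with a Cyp symbol, a count that leaves out P450 proteins under other names such as Tbxas1, of which 18 to 26 reached 1 FPKM in a library. Their FPKM summed to 342 to 404 in the HFD libraries, 529 to 1103 in the GT libraries and 1005 to 2004 in the TJ libraries. In ND the sums were 267, 1936 and 1801 in replicates 1 to 3. Cyp2e1 made up 19.1% to 27.5% of the sum in HFD, 45.4% to 72.1% in GT and 63.9% to 80.1% in TJ. In ND it made up 38.1% in replicate 1 and 83.3% and 82.8% in the others. The sum of all other P450 genes stayed between 276 and 399 FPKM in 11 libraries and was 165 in ND replicate 1. After Cyp2e1, Cyp4v3, Cyp4b1 and Cyp27a1 held ranks 2, 3 and 4 by mean FPKM among these 98 genes in every group.

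**Figure D2:**
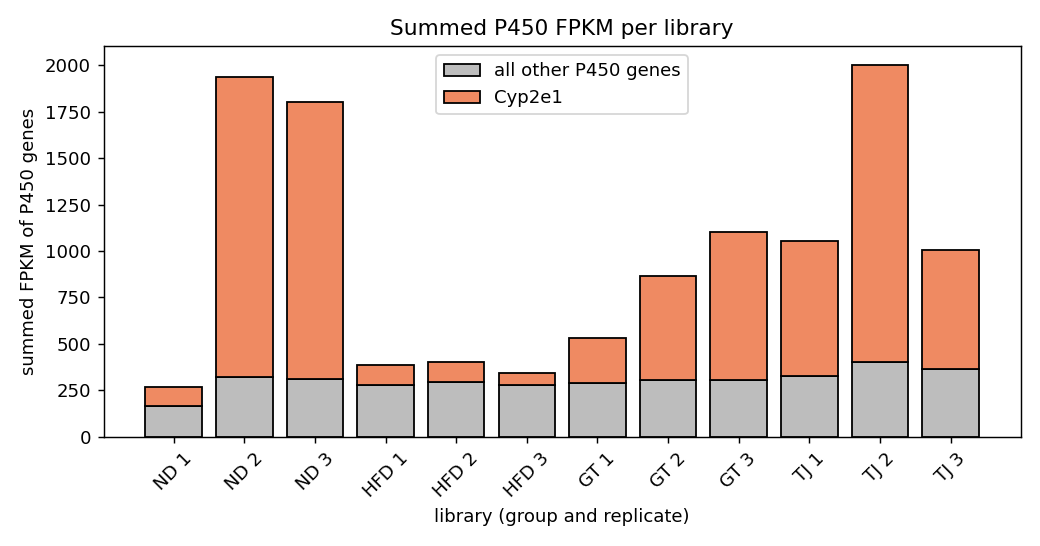
Summed FPKM of the 98 P450 genes (vertical axis, linear, from 0) in each of the 12 libraries, split into Cyp2e1 and all other P450 genes. The lower segments lie between 276 and 399 FPKM in all libraries but ND replicate 1, and the upper segments, Cyp2e1, differ between the groups.

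Adipocyte markers differed between the groups too. The 10 adipocyte markers summed to 17968 to 20496 FPKM in HFD, 25212 to 29705 in GT and 30959 to 61794 in TJ, and to 4311 to 34801 in ND. In TJ against HFD 7 of the 10 were called higher and none lower, and 8 of 10 macrophage markers were called lower. Over all tested genes of this comparison 7.41% were called higher and 11.1% lower. The macrophage sum was 3213 to 4400 FPKM in HFD, 1299 to 2913 in GT, 743 to 2288 in TJ and 61.3 to 582 in ND. To set Cyp2e1 beside these values, its FPKM was divided by the adipocyte marker sum. Fabp4 made up most of that sum in every library, at 48299 of 61794 FPKM in TJ replicate 2 and 13012 of 23491 in ND replicate 3. Ratios to the sum therefore follow Fabp4 more than the other markers.

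Per 1000 FPKM of adipocyte markers, Cyp2e1 was at 23.5, 46.3 and 63.5 in the ND libraries and at 5.16, 5.70 and 3.63 in the HFD libraries. It was at 9.53, 20.5 and 26.8 in GT and at 19.2, 26.0 and 20.7 in TJ. On this ratio the HFD libraries lay below all 9 others, ND replicate 1 included. The means were 44.5 ± 20.04 in ND, 4.83 ± 1.07 in HFD, 18.9 ± 8.73 in GT and 22.0 ± 3.56 in TJ (SD, n = 3 each). The markers were themselves among the genes that differed between groups, and Pck1, one of them, followed Cyp2e1 closely, so the ratio is a description.

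**Figure D3:**
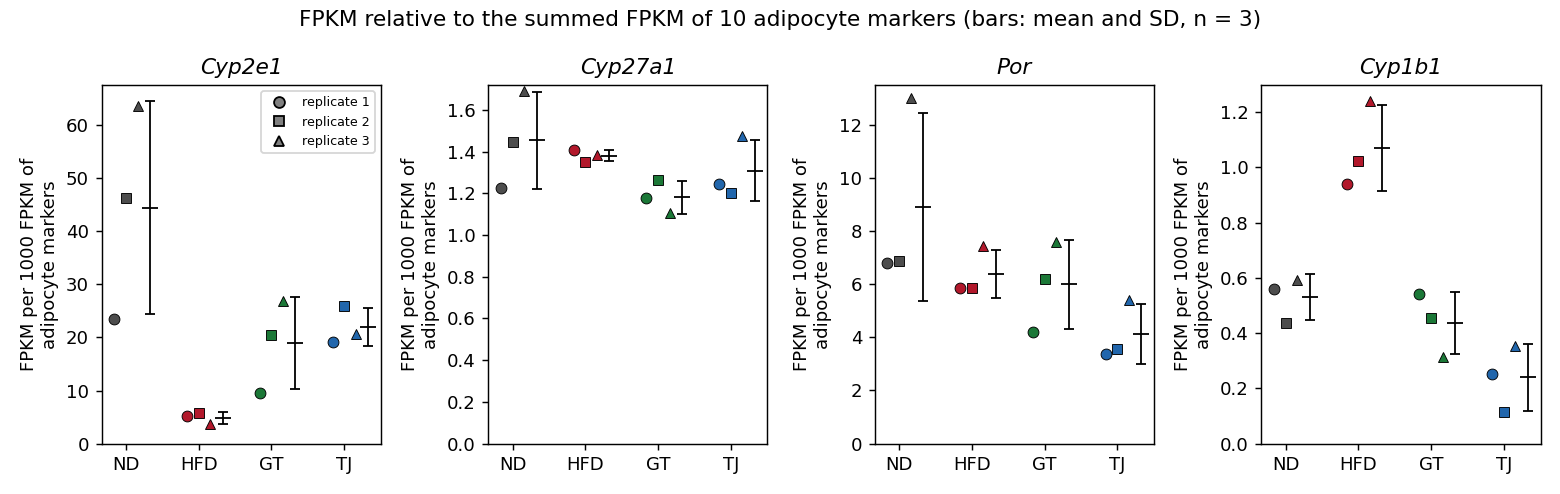
FPKM of Cyp2e1, Cyp27a1, Por and Cyp1b1 per 1000 FPKM of 10 adipocyte markers (vertical axes, linear) in the 4 groups. Symbols are single libraries and bars are the mean and SD of 3 libraries. The Cyp2e1 ratio is between 3.63 and 5.70 in HFD and at least 9.53 in every other library, the Cyp27a1 ratio has group means of 1.18 to 1.45, and the Cyp1b1 ratio is highest in HFD.

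Cyp4b1, a microsomal enzyme that hydroxylates fatty acids and foreign compounds, was highest in TJ. Its level was 7.03, 40.5 and 51.1 FPKM in ND, 44.8, 48.4 and 39.6 in HFD and 46.1, 39.8 and 51.0 in GT. In TJ it was 52.2, 87.7 and 71.6 FPKM. Every TJ library lay above every other library, the nearest being 52.2 in TJ and 51.1 in ND. The fitted log2 fold change of Cyp4b1 was 0.63 in TJ against HFD (standard error 0.21) and 0.04 in GT against HFD (standard error 0.13), where its sign changed in 2 of 15 settings. It was 0.80 in HFD against ND (standard error 0.73), and -0.04 without ND replicate 1 (standard error 0.16). The summed FPKM of 7 endothelial markers was also highest in TJ, at 484 to 742 FPKM against at most 450 in any other library. Cldn5 was the highest of them in every library, at 226, 383 and 322 FPKM in TJ. In TJ Cldn5 and Emcn lay above all libraries of the other groups. The other markers, among them Tek and Kdr, overlapped with other groups. Of the 7 endothelial markers, 2 were called higher in TJ against HFD, where 7.41% of all tested genes were. The part of these markers in the Cyp4b1 values was not tested. Per 1000 FPKM of adipocyte markers Cyp4b1 averaged 1.66 in ND, 2.29 in HFD, 1.67 in GT and 1.70 in TJ.

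Cyp2d22, a mouse member of the drug-metabolising CYP2D family, had FPKM in the order TJ, ND, GT, HFD by group mean, and in the order ND, TJ, GT, HFD without ND replicate 1, when the ND mean was 33.8 FPKM and the TJ mean 27.1. It was at 3.68, 30.0 and 37.5 FPKM in ND, 13.2, 14.0 and 11.5 in HFD, 13.2, 16.2 and 18.1 in GT and 21.2, 35.6 and 24.5 in TJ. All TJ libraries lay above all HFD and GT libraries, whereas GT and HFD overlapped. The fitted log2 fold change of Cyp2d22 was 0.99 in TJ against HFD (standard error 0.20) and 0.27 in GT against HFD (standard error 0.14). Between HFD and ND it was -0.36 (standard error 0.83), and -1.32 without ND replicate 1 (standard error 0.16). Per 1000 FPKM of adipocyte markers it averaged 1.10 in ND, 0.668 in HFD, 0.576 in GT and 0.642 in TJ. On this ratio, unlike that of Cyp2e1, the HFD libraries were not the lowest, and the GT libraries lay below them. Close copies of the gene exist, and how reads shared with them were divided is a matter of the upstream counting.

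Cyp27a1, the mitochondrial enzyme that turns cholesterol into 27-hydroxycholesterol, averaged 2.09 times as much in TJ as in HFD. Its level was 5.28, 50.4 and 39.7 FPKM in ND, 28.8, 26.2 and 24.9 in HFD, 29.6, 34.3 and 32.8 in GT and 47.3, 74.2 and 45.7 in TJ. Each GT library exceeded each HFD library by a small margin, and all TJ libraries lay above both. The log2 fold change of Cyp27a1 was 1.00 in TJ against HFD (standard error 0.20) and 0.27 in GT against HFD (standard error 0.10). For HFD against ND it was 0.23 (standard error 0.82), and -0.73 without ND replicate 1 (standard error 0.15). Set against 1000 FPKM of adipocyte markers, the Cyp27a1 value differed less between groups than that of Cyp2e1, at 1.45 ± 0.232 in ND, 1.38 ± 0.0279 in HFD, 1.18 ± 0.0794 in GT and 1.31 ± 0.147 in TJ (SD, n = 3 each). On this ratio the GT libraries lay below the HFD libraries, and TJ and ND overlapped with HFD.

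Por, the electron donor of the microsomal P450s, was the most abundant of the 8 genes in the HFD libraries. Its level was 29.4, 239.6 and 305 FPKM in ND, 120.3, 114 and 133 in HFD, 106, 168 and 225 in GT and 128, 219 and 168 in TJ. HFD overlapped with GT and with TJ, and lay below ND replicates 2 and 3. The log2 fold change of Por was 0.38 in GT against HFD (standard error 0.26) and 0.45 in TJ against HFD (standard error 0.21). Its value in HFD against ND was -0.09 (standard error 0.90), and -1.14 without ND replicate 1 (standard error 0.15). Por FPKM per 1000 FPKM of adipocyte markers averaged 8.90 in ND, 6.38 in HFD, 5.99 in GT and 4.12 in TJ. A lincRNA and a processed pseudogene overlap Por on the opposite strand, and the library kit kept no strand.

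Cyp1b1, which hydroxylates oestrogens and polycyclic hydrocarbons, ran the other way and was highest in HFD. It was at 2.41, 15.2 and 14.0 FPKM in ND, 19.3, 19.9 and 22.3 in HFD, 13.6, 12.3 and 9.37 in GT and 9.51, 7.04 and 10.97 in TJ. No library of another group reached the lowest HFD library. The log2 fold change of Cyp1b1 was -0.76 in GT against HFD (standard error 0.14) and -1.10 in TJ against HFD (standard error 0.17). It was 1.19 in HFD against ND (standard error 0.64), and 0.47 without ND replicate 1 (standard error 0.13). Summed markers of stromal progenitor cells and of macrophages were also highest in HFD. The macrophage sums, given above, were lower in every ND library than in any GT or TJ library. Cyp1b1, in contrast, was higher in ND replicates 2 and 3 than in every GT and TJ library. Of the 10 macrophage markers 8 were called lower in TJ against HFD, where 11.1% of all tested genes were. The 8 stromal genes summed to 1760 to 1907 FPKM in HFD, 1097 to 1424 in GT, 1061 to 1160 in TJ and 98.0 to 1204 in ND. In TJ against HFD 3 of the 8 stromal markers were called lower, where 11.1% of all tested genes were. In GT against HFD 2 were, where 1.81% of all tested genes were. The fitted change in TJ against HFD was negative for 7 of the 8, and Ly6a went the other way. The part of both marker sets in the Cyp1b1 values was not tested.

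Cyp2f2 and Cyp7b1 were too low to be tested in any of the 3 comparisons. Cyp2f2, known from the club cells of the lung, was at 0.527, 1.99 and 1.71 FPKM in ND, 0.0312, 0.572 and 0.254 in HFD, 0.101, 0.397 and 0.440 in GT and 0.320, 0.453 and 0.0598 in TJ. ND replicates 2 and 3 held the highest values of Cyp2f2, and an antisense gene overlaps it. Cyp7b1, the oxysterol 7α-hydroxylase, ranged from 0.128 to 0.717 FPKM over the 12 libraries, and every pair of neighbouring groups overlapped.

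Of the 8 genes, 6 passed the filter on low values. In HFD against ND none of them was called by limma (1 at an unadjusted p below 0.05), where 1.77% of 14430 tested genes were called. Without ND replicate 1, 4 were called lower (Cyp2e1, Cyp2d22, Por and Cyp27a1), where 4.34% of 13661 tested genes were. In GT against HFD 1 gene was called higher (Cyp2e1) and 1 lower (Cyp1b1), where 1.83% and 1.81% of 12766 tested genes were. In TJ against HFD 3 were called higher (Cyp2e1, Cyp27a1 and Cyp2d22), where 7.41% of 12807 tested genes were, and Cyp1b1 was called lower, where 11.1% were. Counted by libraries that did not overlap, Cyp1b1 alone was higher in HFD than in ND (20.5% of all tested genes were). Without ND replicate 1, Cyp1b1 was higher and 5 of the 8 were lower (Cyp2e1, Cyp2f2, Cyp2d22, Cyp27a1 and Por), against 28.0% and 19.2% of all tested genes. In the GT libraries Cyp2e1 and Cyp27a1 lay above and Cyp1b1 below all HFD libraries, against 12.3% and 24.4% of tested genes, and in the TJ libraries Cyp2e1, Cyp4b1, Cyp2d22 and Cyp27a1 lay above and Cyp1b1 below, against 20.1% and 31.4%. The genes were chosen on these libraries, so nothing is read from these counts. They rested on few libraries. None of the 6 was called in TJ against HFD when any 1 of the HFD libraries or TJ replicate 1 was left out, with 4 to 6 at an unadjusted p below 0.05. None was called in GT against HFD without any 1 of the 3 HFD libraries or without GT replicate 2 or 3, with 2 or 3 at an unadjusted p below 0.05.

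**Figure D4:**
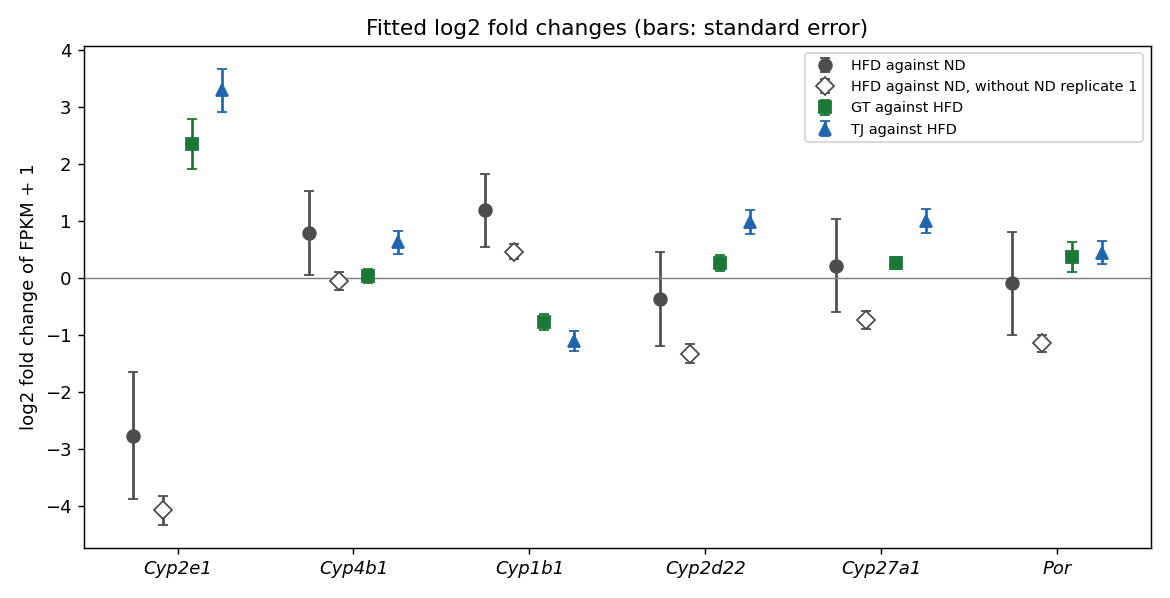
Fitted log2 fold changes of FPKM + 1 (vertical axis) with standard errors for the 6 tested genes in HFD against ND, the same without ND replicate 1, GT against HFD and TJ against HFD. Cyp2e1 runs from -4.07 to 3.30, and Cyp1b1 is below 0 in both comparisons with added extracts (-0.76 and -1.10).

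The other P450 genes of the table, taken by symbol, numbered 91. The 5 most abundant over the 12 libraries were Cyp4v3 (mean 71.2 FPKM), Cyp20a1 (16.9), Cyp4f13 (16.1), Cyp51 (12.8) and Cyp4f16 (12.1). In TJ against HFD 14 of the 91 were tested, and 1 was called higher and 2 lower, where 7.41% and 11.1% of all tested genes were. Their median log2 fold change was 0.14, against -0.14 over all tested genes. Cyp4f17, of a family that hydroxylates the ends of fatty acids, rose from 4.38 ± 0.124 to 9.83 ± 2.26 FPKM (SD, n = 3 each), or 0.99 ± 0.18 on the log2 scale (fitted change ± standard error, limma adjusted p = 0.0248). Cyp51, which demethylates lanosterol in cholesterol synthesis, fell from 18.8 ± 0.949 to 7.89 ± 2.04 FPKM (SD, n = 3 each), which is -1.19 ± 0.19 on the log2 scale (limma adjusted p = 0.0232). Cyp2s1, an enzyme of tissues outside the liver, fell from 4.12 ± 1.04 to 0.900 ± 0.146 FPKM (SD, n = 3 each), which is -1.42 ± 0.21 on the log2 scale (limma adjusted p = 0.0206). None of the other P450s was called when any 1 HFD library or TJ replicate 1 was left out, with 6 at an unadjusted p below 0.05 in each of these fits.

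In GT against HFD 15 of the other P450s were tested and only Cyp4f17 was called (1.83% of all tested genes were called higher), with a rise from 4.38 to 8.93 ± 1.09 FPKM (SD, n = 3) or 0.88 ± 0.11 on the log2 scale (limma adjusted p = 0.0316). None of 19 was called by limma in HFD against ND, and none had an unadjusted p below 0.05. Some of the 19 passed the filter only through ND replicate 1, where 7 markers of Leydig cells of the testis summed to 1558 FPKM. With ND replicate 1 left out, Cyp51 was called higher in HFD (log2 fold change 0.88, limma adjusted p = 0.0328) and Cyp4f17 lower (log2 fold change -1.12, limma adjusted p = 0.0229), of 17 tested. Of all 13661 genes tested in that fit, 1505 were called higher and 593 lower. The limma adjusted p over the 13 alternatives of this comparison ran from 0.0328 to 0.823 for Cyp51 and from 0.0229 to 0.992 for Cyp4f17.

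Among 11 redox partners of the P450s, 3 were called higher and 1 lower in TJ against HFD, where 7.41% and 11.1% of all tested genes were. Fdx1, the ferredoxin that hands electrons to mitochondrial P450s such as Cyp27a1, was at 13.5 ± 0.304 FPKM in HFD and 42.2 ± 14.0 in TJ (SD, n = 3 each), a change of 1.53 ± 0.22 on the log2 scale (limma adjusted p = 0.0206). Nenf, which encodes a haem-binding protein related to cytochrome b5, rose by a log2 fold change of 1.41 (limma adjusted p = 0.0381), and Cyb5a, cytochrome b5 itself, by 0.87 (limma adjusted p = 0.0398). Cyb5r4, a fusion of a cytochrome b5 and its reductase, changed by -0.67 (limma adjusted p = 0.0372). The median of the 11 was 0.22, against -0.14 over all tested genes. In GT against HFD only Cyb5r4 was called, at -0.62 (limma adjusted p = 0.0499), and Fdx1 had a log2 fold change of -0.27. None was called by limma in HFD against ND, with 2 at an unadjusted p below 0.05. Cyb5b and Cyb5r4 were called higher without ND replicate 1, where 1505 of 13661 tested genes were.

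Of 13 haem genes 1 was called lower in TJ against HFD, where 11.1% of all tested genes were, and none higher. Hmox1, the haem oxygenase that breaks haem down with electrons from Por, fell from 112 ± 19.9 to 46.9 ± 15.8 FPKM (SD, n = 3 each), a change of -1.29 ± 0.28 on the log2 scale (limma adjusted p = 0.0306). None of the 13 was called by limma in GT against HFD (3 at an unadjusted p below 0.05) or in HFD against ND (4 at an unadjusted p below 0.05). When ND replicate 1 was left out, Hmox1 was higher in HFD than in ND by a log2 fold change of 2.58 (limma adjusted p = 0.00145, range over the 13 alternatives 0.00145 to 0.438). It was 1 of 3 haem genes called higher, where 1505 of 13661 tested genes were. Another was Blvra, which encodes biliverdin reductase. Hmox1 is abundant in macrophages, whose markers moved in the same directions. Their part in the Hmox1 values was not tested.

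Of 21 receptors and regulators of P450 genes, among them Ahr, the PPARs and the partners of the RXR family, 14 were tested in TJ against HFD and 1 was called higher, where 7.41% of all tested genes were. Rxrg, a retinoid X receptor that pairs with other nuclear receptors, rose from 3.71 ± 0.789 to 10.4 ± 1.57 FPKM (SD, n = 3 each), with a log2 fold change of 1.28 (limma adjusted p = 0.0196). It was also the only call of this list in GT against HFD, at 1.04 (limma adjusted p = 0.0419). In HFD against ND none of 15 was called by limma, with none at an unadjusted p below 0.05, and without ND replicate 1 none was called, with 7 at an unadjusted p below 0.05.

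The list of oxysterol and bile acid genes, which act around Cyp27a1 and Cyp7b1, had 13 tested genes in TJ against HFD, of which 1 was called higher and 2 lower, next to 7.41% and 11.1% of all tested genes. Their median log2 fold change was -0.52. Gpr183, the immune cell receptor for 7α,25-dihydroxycholesterol, fell from 4.49 ± 0.314 to 1.29 ± 0.306 FPKM (SD, n = 3 each), with a log2 fold change of -1.27 (limma adjusted p = 0.0196). Npc1, which exports cholesterol from lysosomes, changed by -1.01 (limma adjusted p = 0.0223), and Scp2, a peroxisomal enzyme and sterol carrier, by 0.66 (limma adjusted p = 0.0469). None of 12 was called by limma in GT against HFD, with 5 at an unadjusted p below 0.05. In HFD against ND Gpr183 was called higher in HFD, at 2.02 (limma adjusted p = 0.0470), and it was the only call among 14. It was lost with HFD and ND libraries of the same number taken as pairs, when limma called no gene of the whole table (2239 at an unadjusted p below 0.05). Macrophage markers moved in the same directions as Gpr183 in TJ against HFD and in HFD against ND, and their part in its values was not tested. Leaving out ND replicate 1 gave 4 higher calls, Gpr183, Npc2, Stard3 and Abcg1, where 1505 of 13661 tested genes were called higher.

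Alcohol, aldehyde and epoxide enzymes share substrates with Cyp2e1 or take up P450 products. None of 13 tested was called by limma in TJ against HFD, with 5 at an unadjusted p below 0.05. In GT against HFD Ephx2, the soluble epoxide hydrolase that opens fatty acid epoxides made by P450s, rose from 156 ± 14.5 to 254 ± 14.8 FPKM (SD, n = 3 each), with a log2 fold change of 0.70 (limma adjusted p = 0.0348). None was called by limma in HFD against ND, with 3 at an unadjusted p below 0.05. Without ND replicate 1, 4 were called higher (Aldh3b1, Aldh9a1, Akr1a1 and Ephx1) and 2 lower, where 1505 and 593 of 13661 tested genes were. The lower ones were Ephx2 (log2 fold change -0.71, limma adjusted p = 0.0405, range 0.0405 to 0.914 over 13 alternatives) and Aldh2, the mitochondrial enzyme that clears acetaldehyde.

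Among flavin mono-oxygenases and arachidonic acid enzymes, 3 of 10 were called higher and 1 lower in TJ against HFD, beside 7.41% and 11.1% of all tested genes. Fmo1, an NADPH-dependent oxygenase of nitrogen and sulphur compounds, rose from 34.9 ± 5.10 to 80.3 ± 21.04 FPKM (SD, n = 3 each), with a log2 fold change of 1.16 (limma adjusted p = 0.0248). Fmo5 rose by 0.77 (limma adjusted p = 0.0268) and Ltc4s, leukotriene C4 synthase, by 1.38 (limma adjusted p = 0.0361). Tbxas1, thromboxane synthase, a P450 protein that is abundant in macrophages and platelets, fell from 64.8 ± 11.5 to 15.0 ± 8.41 FPKM (SD, n = 3 each), with a log2 fold change of -2.22 (limma adjusted p = 0.0285). It was 3.93 higher on the log2 scale in HFD than in ND (limma adjusted p = 0.0446), a call that the pairing by replicate number also removed. Its HFD libraries ranged from 51.5 to 72.2 FPKM and so overlapped with the Cyp2e1 values of that group. The macrophage marker sums moved in the same directions, and their part in the Tbxas1 values was not tested. None of the 10 was called by limma in GT against HFD, with 3 at an unadjusted p below 0.05. Without ND replicate 1, Tbxas1 was called higher and Fmo1 and Fmo5 lower in HFD than in ND. Over the 13661 tested genes of that fit 1505 were called higher and 593 lower.

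Each of the named calls in TJ against HFD outside the 8 genes had a limma adjusted p above 0.05 in at least 1 of its alternatives. Over the 14 alternatives the limma adjusted p of Fdx1 ran from 0.00568 to 0.111, that of Cyp51 from 0.00568 to 0.113 and that of Tbxas1 from 0.00568 to 0.118. The sign of these 3 fold changes was the same in every alternative. In GT against HFD the limma adjusted p of Cyp4f17 ran from 0.0257 to 1.00 over the 14 alternatives, that of Rxrg from 0.0286 to 1.00, that of Cyb5r4 from 0.0365 to 1.00 and that of Ephx2 from 0.0257 to 1.00. In HFD against ND that of Tbxas1 ran from 0.00095 to 0.299 over 13 alternatives and that of Gpr183 from 0.00414 to 0.344 over 12. Losing the calls was not particular to these genes, since limma called no gene of the whole table in TJ against HFD when 1 HFD library or TJ replicate 1 was left out, with 3732 to 4735 genes at an unadjusted p below 0.05. The marker calls are among those lost.

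Other genes followed Cyp2e1 across the libraries. Over the 12 libraries and 13934 genes, the highest Pearson correlations with Cyp2e1 on log2(FPKM + 1) were those of Jup (0.979), Mogat1 (0.975), Art3 (0.974), B430010I23Rik (0.973) and Phkg1 (0.969). Without ND replicate 1 they were those of Pck1 (0.989), Art3 (0.988), Ucp3 (0.987), Jup (0.985) and Xpc (0.983). When the group means were subtracted first, Ces1d, Jup, Nicn1, Timp4 and Art3 led over 12 libraries, with values of 0.982 to 0.986. Without ND replicate 1 the leaders were Agt, Pck1, Ucp3, Chst1 and Ube2d-ps, from 0.937 to 0.976. The libraries of a group share their diet, and the summed adipocyte markers differed between libraries, so these values describe likeness only.

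Within the list, Cyp2d22 was most like Cyp2e1, with a Pearson correlation of 0.829 over 12 libraries and 0.902 without ND replicate 1. The value for Cyp27a1 was 0.705 and 0.834, and that for Por was 0.721 and 0.807. Cyp1b1 had -0.144 over 12 libraries and -0.761 without ND replicate 1, and Cyp4b1 had 0.496 and 0.445. On deviations from the group means Cyp1b1 turned from 0.708 over 12 libraries to -0.901 without ND replicate 1.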

How the data were processed

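Male C57BL/6J eWAT was measured in 12 libraries, 3 each of ND, HFD, GT and TJ. The authors deposited FPKM values per gene, made with Cufflinks 2.1.1 (mask, multi-read and fragment bias options) from unstranded paired-end HiSeq reads aligned with STAR (2.4.0 in the submitters' processing notes) on Ensembl release 72 annotation. The methods name another STAR version and a human genome, whereas all identifiers are mouse. Symbols came from GENCODE release 21 (GRCm38) for 22671 of 23474 identifiers. The 8 genes and all lists were chosen with earlier results of these data known.

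Read totals are not given. The steps between low FPKM values of 2315 genes with a single transcript put the depth at roughly 9570000 fragments in ND replicate 1 and 14200000 to 19300000 in the other libraries. The deposited FPKM values were tested with limma 3.58.1 in R 4.3.3 (lmFit, eBayes with trend) on log2(FPKM + 1), leaving out genes that averaged under 1 FPKM across the 6 libraries compared, with Benjamini-Hochberg adjustment and a fold of at least 1.5. The fit was tested on simulated data in which each gene varied independently, so deviations shared by a whole library were not covered. The p-values measure the spread between these libraries, which may in part be technical.

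Named outside the 8 genes were called P450 genes, the 5 most abundant P450s, of each list the called genes with the 2 highest and the 2 lowest fold changes per comparison (every call where a list had up to 4), and the 5 genes most correlated with Cyp2e1. Genes named under fits without ND replicate 1 were added after their values were seen, and not every gene called there is named or reported here. Alternatives were a pseudocount of 0.1, no filter, a filter of 5 FPKM, quantile normalization, scaling by median of ratios, a fit of all 12 libraries, a replicate block and leaving out each library. For same-numbered HFD and ND libraries the deviations from the group means correlated at 0.56, 0.35 and 0.14. The highest value, 0.64, was between HFD replicate 3 and ND replicate 2, so these values do not settle whether the numbers mark pairs. Taking them as pairs is therefore given only as an alternative. In the other comparisons same-numbered libraries correlated at no more than 0.23.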

Additional observations from a re-analysis of the deposited data

How the results depend on the processing

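The log2 fold change of Cyp2e1 kept its direction in every alternative, from -4.07 to -2.08 in HFD against ND, 1.99 to 2.85 in GT against HFD and 2.89 to 3.55 in TJ against HFD. Cyp1b1, Cyp2d22 and Cyp27a1 also kept their direction in GT against HFD and in TJ against HFD. In HFD against ND the directions of Cyp27a1, Cyp4b1, Cyp2d22 and Por changed in 1 to 2 of 14 settings. The value of Cyp27a1 in GT against HFD moved to 0.38 with quantile normalization.

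The number of the 8 genes called depended on the settings. In GT against HFD it was 2, and it was 0 with no filter, 0 with all 12 libraries in the fit and 1 with all libraries but ND replicate 1, an alternative chosen after seeing the data. In TJ against HFD it was 4, and it was 2 with no filter, 0 with all 12 libraries in the fit, 5 with quantile normalization and 5 with all libraries but ND replicate 1. Leaving out 1 library gave 0 to 4 in HFD against ND, 0 to 3 in GT against HFD and 0 to 4 in TJ against HFD. For the other P450 genes the count in GT against HFD was 1, and 0 with no filter, 0 with all 12 libraries and 0 with all but ND replicate 1. In TJ against HFD it was 3, and 5 with median-of-ratios scaling, 5 with quantile normalization, 2 with no filter, 2 with the filter of 5 FPKM and 0 with all 12 libraries. Leaving out 1 library gave 0 to 2 in HFD against ND, 0 to 2 in GT against HFD and 0 to 4 in TJ against HFD. The cause was not tested.

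With the replicate block the number of the 8 genes called was 0 in HFD against ND, 0 in GT against HFD and 4 in TJ against HFD, and that of the other P450s was 0, 0 and 3. Over the whole table limma with the block called no gene in HFD against ND (2239 at an unadjusted p below 0.05), 1 higher and 4 lower in GT against HFD, and 429 higher and 769 lower in TJ against HFD. Same-numbered libraries correlated at 0.17, 0.05 and -0.07 in GT against HFD and at -0.02, -0.06 and 0.23 in TJ against HFD, so no pairing by number was seen there. In HFD against ND the pairing was not settled.

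Only FPKM values were tested, so the counting error of low genes such as Cyp2f2 and Cyp7b1 could not be modelled. With 3 libraries per group, 1 of them with high testis and epididymis transcripts, the comparison of HFD with ND rests on few libraries.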
